A study of Mus musculus with 30 samples.

Results

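The TRiC chaperonin, also called CCT, is described here through the transcripts of its subunits in cultured mouse fibroblasts. The rule for its members uses gene symbols and no measured value, and names the 8 subunits Tcp1, Cct2, Cct3, Cct4, Cct5, Cct6a, Cct7 and Cct8, though the set was chosen with earlier results of these data known. Of these, 7 of the 8 matched a gene among the 29861 in the deposited table. Cct6a was not analysed here. All 7 matched subunits passed the filter on low values and were tested. RNA sequencing was done on CCG-HTA-1 cells, a primary fibroblast line from the tails of UMHet3 mice, a genetically mixed stock, at passage 4. The cells were exposed for 48 hours to Antimycin A, Dihydrorotenone, Diphenyleneiodonium Cl, Cardamonin, BerberineA, Clofilium tosylate, AEG 3482 or Podofilox, with 3 libraries for each compound, or to the solvent DMSO, with 6 libraries. Doses are not given in the sources used here. Every library came from the same line, grown in high-glucose medium with 10% serum, from donor mice labelled as 5 to 8 weeks old. The exception was Dihydrorotenone replicate 1, labelled as 8 to 11 weeks. The replicates are therefore cultures or libraries of 1 line, and p-values measure only the spread between these samples, which may be technical.

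TRiC is a cytosolic chaperone built as stacked rings, in which each ring holds 1 copy of every subunit and closes over an unfolded protein as ATP is used. Its best known clients are actin and tubulin, the building blocks of the cytoskeleton. Prefoldin hands nascent actin and tubulin chains to the chaperonin, phosducin-like proteins assist it, and tubulin folding cofactors take over the released tubulin. The subunits are paralogs that differ in how tightly they bind ATP, with Cct2, Cct4 and Cct5 on the tightly binding side of the ring and Cct3 and Cct8 on the other.

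Values are TPM, in transcripts per 1000000 transcripts, which are scaled to transcript length and to the total of each library, so that levels of different genes can be compared. A library held 12229 to 12700 genes at 1 TPM or more. The sequencing depth is unknown, since TPM does not carry it. Library numbers in the labels ran in group order, so a difference between compounds and one between stretches of library numbers cannot be told apart. The fibroblast identity was checked with 8 markers (Col1a1, Col1a2, Col3a1, Pdgfra, Pdgfrb, Vim, Thy1 and Dcn), all at 37.2 TPM or more in every library. All 3 keratinocyte, 2 endothelial and 3 muscle markers stayed below 1 TPM in every library. Of 4 leukocyte markers, Ptprc, the defining one, was below 1 TPM throughout, whereas Lyz2 reached 35.6 to 180.4 TPM, Cd68 11.5 to 41.4 TPM and Adgre1 1.62 to 12.1 TPM. Sox10, a Schwann cell marker, stayed below 0.294 TPM.

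The subunit genes lie on 7 different chromosomes of the mouse genome (GENCODE M21, GRCm38, positions of whole genes). They are Tcp1 (ENSMUSG00000068039) at chr17:12915701-12925067, Cct2 (ENSMUSG00000034024) at chr10:117051001-117063814, Cct3 (ENSMUSG00000001416) at chr3:88297116-88321767, Cct4 (ENSMUSG00000007739) at chr11:22990519-23003780, Cct5 (ENSMUSG00000022234) at chr15:31590800-31601804, Cct7 (ENSMUSG00000030007) at chr6:85451514-85468475 and Cct8 (ENSMUSG00000025613) at chr16:87483326-87495873. The promoter sequences of 4 of them are shown, chosen with their calls in Cardamonin, AEG 3482 and Podofilox known. The choice does not cover all subunits. Of those not shown, Tcp1 had the same calls in these compounds as Cct2 and Cct7, and Cct5 the same as Cct8. Cct2 and Cct7 were higher in Cardamonin, AEG 3482 and Podofilox, Cct3 was higher in Cardamonin and Podofilox, and Cct8 was higher in Cardamonin and AEG 3482. Each window runs from 140 to 26 bases before the first annotated start, 5′ to 3′ on the strand of the gene, from RefSeq on GRCm38.p6. Capitals mark matches on either strand to the GC box GGGCGG, bound by Sp-family factors, to the CCAAT box, to the heat shock element pairs GAANNTTC and TTCNNGAA, and to the antioxidant response core TGACNNNGC. In these 4 windows the only matches were to the GC box and the CCAAT box. The same stretches before the first start of Cct5 and before a second annotated start of Cct2, not shown, each hold 1 heat shock element pair.
Cct2 (chr10:117063878-117063992, minus strand): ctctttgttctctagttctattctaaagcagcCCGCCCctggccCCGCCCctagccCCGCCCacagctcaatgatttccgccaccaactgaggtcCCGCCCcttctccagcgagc
Cct3 (chr3:88296995-88297109, plus strand): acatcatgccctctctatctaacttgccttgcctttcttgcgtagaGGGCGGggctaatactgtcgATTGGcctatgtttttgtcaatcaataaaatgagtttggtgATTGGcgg
Cct7 (chr6:85451365-85451479, plus strand): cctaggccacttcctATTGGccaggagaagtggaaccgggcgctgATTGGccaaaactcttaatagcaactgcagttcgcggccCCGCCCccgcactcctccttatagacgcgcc
Cct8 (chr16:87495895-87496009, minus strand): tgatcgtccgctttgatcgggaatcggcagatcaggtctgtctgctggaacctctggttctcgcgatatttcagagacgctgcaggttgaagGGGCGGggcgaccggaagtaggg
The Cct2 window holds 4 GC boxes and no CCAAT box. Those of Cct3 and Cct7 each hold 1 GC box and 2 CCAAT boxes, and that of Cct8 holds 1 GC box. Of the printed bases, 5 of Cct3 lie in an exon of Tsacc and 11 of Cct8 in an exon of B130034C11Rik.

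Promoters of 6 of the 7 measured subunits were searched over their full length, from 250 bases before to 50 bases after the first annotated start. Cct4, the subunit not called in Cardamonin, had no sequence among the promoters used, so the counts cover only subunits called higher there. The GC box was found in all 6, against 64.4% of the 9947 tested genes with a promoter and 35.7% of all 32851 promoters. A CCAAT box was found in 3 of the 6 (Tcp1, Cct3 and Cct7), against 39.0% of tested genes and 37.4% of all promoters. A heat shock element pair was found in Cct5 alone (11.5% of tested genes and 15.1% of all promoters) and the antioxidant response core in Tcp1 alone (14.6% and 12.4%). These counts are for the first start only. Cct2 has a second annotated start whose promoter holds 2 GC boxes, 1 heat shock element pair and 1 antioxidant response core, and that of the second start of Cct5 holds none of the motifs. These matches describe letters in the windows and do not show binding.

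In DMSO the 7 subunits were abundant but not equal. Cct8 had the highest level, 217 ± 16.4 TPM (SD, n = 6), followed by Tcp1, the subunit after which the complex was named, at 185 ± 10.0 TPM. Cct4 followed at 168 ± 10.7 TPM, Cct2 at 164 ± 4.25 TPM and Cct5 at 157 ± 4.31 TPM. Cct3 reached 134 ± 12.6 TPM and Cct7 only 40.7 ± 2.23 TPM. Neighbours in this order overlapped in their ranges over the 6 libraries, except Cct3 and Cct7, whose ranges were well apart. The highest subunit exceeded the lowest by 4.51 to 6.14 times within a DMSO library. Reads could be divided uncertainly for some subunits, since 17.9% of the 31-base words of Tcp1 transcripts also occur in transcripts of other genes, against 5.57% for Cct7, 5.44% for Cct3, 4.99% for Cct8, 1.99% for Cct4, 0.0751% for Cct2 and 0% for Cct5.

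**Figure D1:**
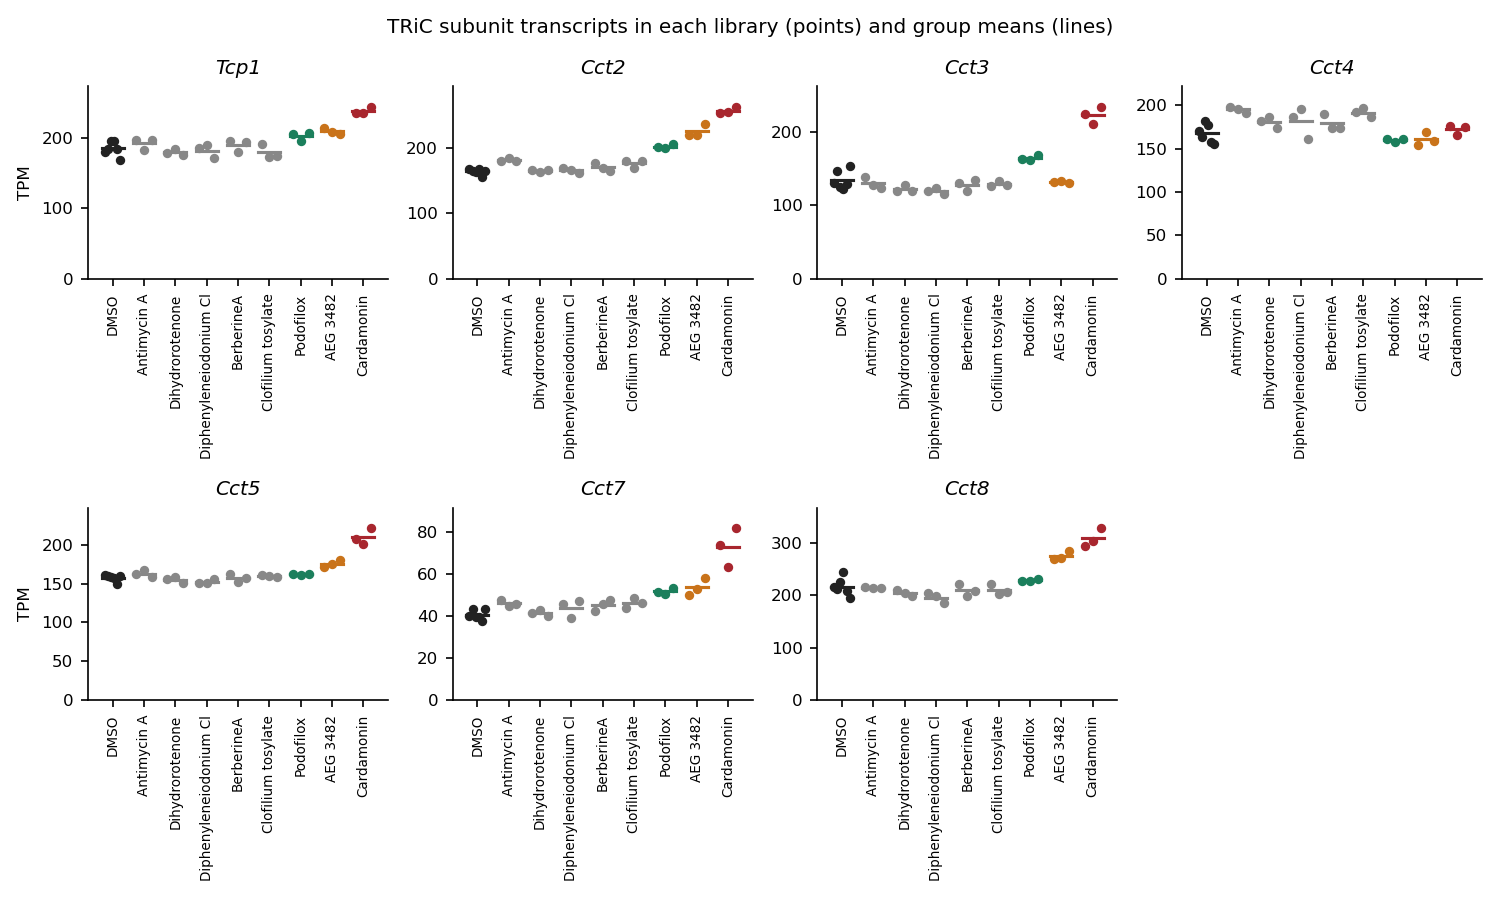
TPM of each of the 7 measured subunits (vertical axis, from 0) in every library (points) with the group mean (line), by treatment (horizontal axis). The Cardamonin points lie above all DMSO points for every subunit but Cct4 (6 of 7, beside 32.9% of all 13644 genes tested), where the mean was 172 TPM in Cardamonin against 168 TPM in DMSO.

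Cardamonin, a plant chalcone, gave the widest change among the subunits. Of 7 tested, 6 rose and none fell, and Cct4 did not pass the test. Over all 13644 genes tested, 37.3% were called higher and 33.0% lower in this comparison. The median log2 fold change was 0.51 for the subunits and 0.03 for all genes. A change was called at a Benjamini-Hochberg adjusted limma p below 0.05, and fold changes are on the log2(TPM + 1) scale. The summed TPM of the 7 subunits was 1482 ± 58.8 (SD, n = 3) in Cardamonin and 1066 ± 30.6 (SD, n = 6) in DMSO, a ratio of 1.39.

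Cct7, the least abundant subunit, had the largest log2 fold change. It stood at 74.1, 63.3 and 81.9 TPM in the 3 Cardamonin libraries and 37.8 to 43.4 TPM (median 39.9) in DMSO. The groups did not overlap, and the log2 fold change was 0.82 ± 0.07 (SE; adjusted p = 3.10e-11, limma). Cct3 stood at 224, 211 and 234 TPM against 122 to 153 TPM (median 129.6), so its lowest Cardamonin library lay far above the highest DMSO library. Its log2 fold change was 0.73 ± 0.06 (SE; adjusted p = 1.39e-11, limma). Cct2, which is mutated in an inherited retinal blindness, stood at 253, 254 and 263 TPM against 156 to 168 TPM (median 164). The Cct2 libraries were tight in both groups, with a log2 fold change of 0.64 ± 0.03 (SE; adjusted p = 1.82e-15, limma).

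Smaller rises were seen for the remaining called subunits. Cct8 stood at 294, 303 and 328 TPM against 196 to 244 TPM (median 214), with a log2 fold change of 0.51 ± 0.05 (SE; adjusted p = 1.74e-09, limma). Cct5, mutated in a hereditary sensory neuropathy, stood at 207, 201 and 221 TPM against 149 to 160.3 TPM (median 159), a log2 fold change of 0.41 ± 0.03 (SE; adjusted p = 2.33e-11, limma). In both genes every Cardamonin library exceeded every DMSO library. Tcp1 stood at 235, 236 and 245 TPM against 169 to 196 TPM (median 185), again without overlap, with a log2 fold change of 0.36 ± 0.05 (SE; adjusted p = 7.38e-08, limma).

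Cct4, whose product sits between Tcp1 and Cct2 in the ring, was the exception. It stood at 176, 166 and 175 TPM in Cardamonin, within the DMSO range of 155 to 182 TPM (median 167). Its log2 fold change was 0.04 ± 0.05 (SE; adjusted p = 0.513, limma), with a 95% interval of −0.07 to 0.15 that lies below the estimate of each of the other 6 subunits.

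Markers moved with this comparison too. The summed TPM of the 8 fibroblast markers was 3743 to 4740 in Cardamonin and 9471 to 10929 in DMSO. It was also below the DMSO range in Antimycin A (7549 to 8329.9), Clofilium tosylate (8187 to 8904), BerberineA (8833 to 9445), Diphenyleneiodonium Cl (8964 to 9459.7) and Podofilox (9019.6 to 9187), and overlapped it in Dihydrorotenone and AEG 3482. That of the 4 leukocyte markers was 109 to 128 in Cardamonin, 151 to 207 in DMSO and 51.9 to 124 in the other 7 compounds, with Ptprc below 1 TPM everywhere. Lyz2 made up most of that sum, and Cd68 went the other way, at 25.5 to 41.4 TPM in Cardamonin and 11.5 to 14.7 TPM in DMSO. Their part in the subunit results was not tested, and in bulk samples fewer cells of a type and less RNA per cell cannot be told apart. Tcp1, Cct7 and Cct8 overlap genes on the opposite strand, and whether the libraries kept strand is not given in the sources used here. The overlapping genes were at mean levels of 30.8 TPM in DMSO and 14.2 TPM in Cardamonin (Acat3, beside Tcp1), 39.8 and 42.9 TPM (Mrpl18, beside Tcp1), 8.14 and 4.72 TPM (Pradc1, beside Cct7), and 47.1 and 47.5 TPM (Usp16, beside Cct8).

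AEG 3482, a compound known by its code, was associated with a rise of 5 of the 7 subunits and a fall of none, beside 41.3% of all genes tested called higher and 26.8% lower. Cct2 stood at 219.9, 219.6 and 237 TPM, above all 6 DMSO libraries, with a log2 fold change of 0.46 ± 0.03 (SE; adjusted p = 3.09e-12, limma). Cct7 stood at 50.4, 53.1 and 58.0 TPM, also above every DMSO library, with a log2 fold change of 0.39 ± 0.07 (SE; adjusted p = 1.04e-05, limma). Cct8 stood at 269, 271 and 283 TPM and rose by a log2 fold change of 0.34 ± 0.05 (SE; adjusted p = 1.68e-06, limma). These 3 subunits had the largest differences. Tcp1, at 214, 208 and 207 TPM, differed by 0.18 ± 0.05 (SE; adjusted p = 0.00111, limma), and Cct5, at 171, 175 and 179.9 TPM, by 0.15 ± 0.03 (SE; adjusted p = 0.000187, limma) on the log2 scale. Both lay above the DMSO range by a small margin. In all, 5 of 7 subunits had every AEG 3482 library above the DMSO range, beside 36.1% of all genes tested.

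Cct3 and Cct4 did not pass the test in AEG 3482. Cct3 stood at 132, 133 and 131 TPM, inside the DMSO range, with a log2 fold change of −0.02 ± 0.06 (SE; adjusted p = 0.729, limma). Cct4 stood at 155, 169 and 159 TPM, with its lowest library level with the lowest DMSO library and a log2 fold change of −0.06 ± 0.05 (SE; adjusted p = 0.342, limma). The median log2 fold change was 0.18 for the subunits and 0.10 for all genes tested. Median-ratio scaling brought the median of all genes from 0.10 to 0.00. The Tcp1 and Cct5 calls were then lost (log2 fold changes 0.07 and 0.05, limma, adjusted p = 0.146 and 0.355), and Cct4 was called lower (−0.16, adjusted p = 0.0147). The same 3 calls changed under quantile normalization, where Cct3 was also called lower (−0.18), and under rescaling without the 20 most abundant genes, whereas Cct2, Cct7 and Cct8 were called higher under each scaling tried.

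Podofilox, which binds tubulin and blocks its assembly into microtubules, was associated with a rise of 4 of the 7 subunits and a fall of none, beside 26.2% of all genes tested called higher and 46.2% called in either direction. Cct2 stood at 202, 199 and 205 TPM, Cct3 at 163, 162 and 168 TPM and Cct7 at 51.6, 50.8 and 53.2 TPM. All 3 lay above their DMSO ranges, as did Cct5, which makes 4 of 7 beside 21.7% of all genes tested. For Cct5 the margin was narrow, with a lowest Podofilox library of 161.0 TPM against a highest DMSO library of 160.3 TPM. The log2 fold changes were 0.30 ± 0.03 (SE; adjusted p = 2.44e-08, limma) for Cct2, 0.29 ± 0.06 (SE; adjusted p = 0.000124, limma) for Cct3 and 0.34 ± 0.07 (SE; adjusted p = 0.000125, limma) for Cct7. Tcp1 stood at 205, 195 and 208 TPM, with 1 library inside the DMSO range, and its log2 fold change was 0.13 ± 0.05 (SE; adjusted p = 0.019, limma). That call was lost without Podofilox replicate 1 (limma, adjusted p = 0.0716) or replicate 3 (0.0916). It was also lost under median-ratio scaling (0.0641), quantile normalization (0.0711), the replicate block (0.0557) and a fit of the 2 groups alone (0.0604). Replicates 4 to 6 exist in DMSO alone, so the replicate block leaves only DMSO replicates 1 to 3 as controls, here and below. Calls lost with the block therefore cannot be assigned to blocking rather than to fewer controls.

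The other 3 subunits did not pass the test in Podofilox. Cct4 stood at 161, 158 and 162 TPM and had a log2 fold change of −0.06 ± 0.05 (SE; adjusted p = 0.35, limma). Cct5 stood at 162, 161 and 162 TPM, with a log2 fold change of 0.04 ± 0.03 (SE; adjusted p = 0.339, limma). Cct8 stood at 227, 227 and 232 TPM, with a log2 fold change of 0.08 ± 0.05 (SE; adjusted p = 0.212, limma), and was called higher without DMSO replicate 4 (0.11, limma, adjusted p = 0.0425). The summed TPM of the subunits was 1231 ± 22.2 in AEG 3482 and 1171 ± 18.7 in Podofilox (SD, n = 3 each), ratios of 1.15 and 1.10 to DMSO.

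**Figure D2:**
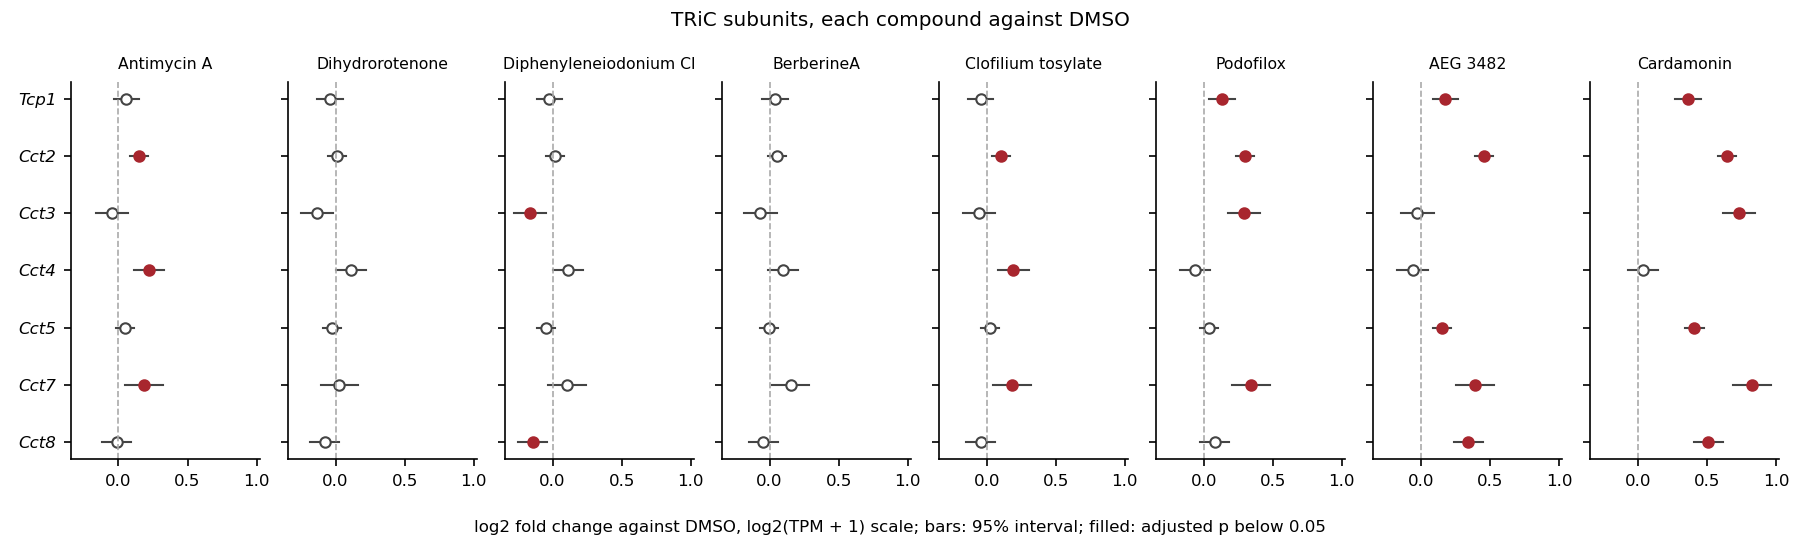
Log2 fold change of each subunit (vertical axis) for each compound against DMSO (horizontal axis, log2(TPM + 1) scale), with 95% intervals, and filled points for adjusted p below 0.05. Filled points reach 0.82 (Cct7) in Cardamonin, 0.46 (Cct2) in AEG 3482 and 0.34 (Cct7) in Podofilox, and 0.22 (Cct4 in Antimycin A) in the other 5 compounds.

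Differences in the other 5 compounds were small. In Antimycin A, an inhibitor of mitochondrial respiration, 3 of the 7 subunits were called higher and none lower, beside 21.8% of all genes tested called higher and 15.5% lower. Cct4 stood at 199, 196 and 191 TPM, above all 6 DMSO libraries, with a log2 fold change of 0.22 ± 0.05 (SE; adjusted p = 0.00176, limma). Cct2 stood at 179, 185 and 181 TPM, likewise above DMSO, with a log2 fold change of 0.15 ± 0.03 (SE; adjusted p = 0.000653, limma). Cct7 differed by 0.18 ± 0.07 (SE; adjusted p = 0.0339, limma) and lost its call without any 1 of the 3 Antimycin A libraries (limma, adjusted p = 0.0553 to 0.134) and without DMSO replicate 1, 3, 4 or 5 (0.0518 to 0.0695). It also lost its call under median-ratio scaling, quantile normalization and rescaling without the 20 most abundant genes (0.0652 to 0.117), with the replicate block (0.0979) and with every gene above 0 TPM tested (0.0524). Thus Cct4, which did not pass the test in Cardamonin, AEG 3482 and Podofilox, had the largest called difference here.

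In Clofilium tosylate, a potassium channel blocker, the called subunits were also Cct2, Cct4 and Cct7, which makes 3 of 7 higher and none lower, beside 10.9% of all genes tested called higher and 12.5% lower. Cct4 stood at 192, 197 and 186 TPM, above all DMSO libraries, with a log2 fold change of 0.19 ± 0.05 (SE; adjusted p = 0.00878, limma). Cct2 differed by 0.10 ± 0.03 (SE; adjusted p = 0.0186, limma) and Cct7 by 0.18 ± 0.07 (SE; adjusted p = 0.0457, limma). The 3 called subunits lay above the DMSO range in every library, beside 9.56% of all genes tested, and the same holds for the 3 in Antimycin A, beside 18.0%. The comparisons of Antimycin A and of Clofilium tosylate share their DMSO libraries. The count in Clofilium tosylate fell from 3 to 1 without its replicate 2, where Cct4 and Cct7 lost their calls (limma, adjusted p = 0.0556 and 0.211), and without its replicate 3, where Cct2 and Cct7 lost theirs (0.0953 and 0.104). Cct2 lost its call without replicate 1 (0.0955), and Cct7 without DMSO replicate 1, 3, 4 or 5 (0.0686 to 0.0905). With the replicate block, which leaves only DMSO replicates 1 to 3 as controls, none of the 3 was called (0.0579 to 0.125). Cct2 was also not called under median-ratio scaling (0.0636) or in a fit of the 2 groups alone (0.0907), nor Cct7 with every gene above 0 TPM tested (0.0706), without the 20 most abundant genes (0.0559) or with no intensity trend (0.0539).

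Diphenyleneiodonium Cl, which inhibits flavoenzymes, was the only compound with subunits called lower, 2 of 7, beside 11.7% of all genes tested called lower and 14.0% higher. Cct3 stood at 119.6, 123 and 115 TPM and Cct8 at 204, 198 and 185 TPM, and both overlapped their DMSO ranges. The log2 fold changes were −0.16 ± 0.06 (SE; adjusted p = 0.0334, limma) for Cct3 and −0.14 ± 0.05 (SE; adjusted p = 0.038, limma) for Cct8. Neither call was left without Diphenyleneiodonium Cl replicate 2 or without replicate 3, and 1 was left without replicate 1 or without DMSO replicate 1, 2, 3, 4 or 6. Without replicate 3, Cct4 was called higher (log2 fold change 0.19, limma, adjusted p = 0.01).

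No subunit passed the limma test in Dihydrorotenone, another respiratory chain inhibitor, beside 14.4% of all genes tested called in either direction, or in BerberineA, beside 21.7%. At an unadjusted limma p below 0.05 stood 2 of 7 subunits in Dihydrorotenone, beside 27.7% of all genes tested, and 1 of 7 in BerberineA, beside 32.5%. The nearest to the threshold were Cct3 in Dihydrorotenone, at 119, 127 and 120.0 TPM with a log2 fold change of −0.13 ± 0.06 (SE; adjusted p = 0.121, limma), and Cct7 in BerberineA, at 42.5, 45.7 and 47.7 TPM with 0.15 ± 0.07 (SE; adjusted p = 0.112, limma). The 95% intervals of all 7 subunits lay between −0.25 and 0.22 in Dihydrorotenone and between −0.18 and 0.29 in BerberineA.

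Direct tests between compounds showed where the 3 wider responses differed. In Cardamonin against AEG 3482, 6 of the 7 subunits were higher in Cardamonin and none was lower, beside 22.6% of all genes tested called higher and 32.7% lower. The difference was largest for Cct3, 0.75 ± 0.07 (SE; adjusted p = 4.11e-10, limma), whose Cardamonin libraries lay between 211 and 234 TPM while its AEG 3482 libraries lay between 131 and 133 TPM. The difference was 0.43 ± 0.08 for Cct7, 0.26 ± 0.04 for Cct5, 0.19 ± 0.04 for Cct2 and 0.19 ± 0.05 for Tcp1. Cct8 differed by 0.17 ± 0.06 (SE; adjusted p = 0.0182, limma), and that call was lost without Cardamonin replicate 3 (limma, adjusted p = 0.113), AEG 3482 replicate 1 (0.0609) or AEG 3482 replicate 2 (0.0512). Cct4 differed by 0.10 ± 0.06 (limma, adjusted p = 0.18), but was called higher under median-ratio scaling (0.18, adjusted p = 0.0245).

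In Podofilox against AEG 3482, only Cct3 was higher in Podofilox, by 0.32 ± 0.07 (SE; adjusted p = 0.000168, limma), beside 25.1% of all genes tested called higher. Cct8, Cct2 and Cct5 were lower in Podofilox, 3 of 7 beside 35.2% of all genes tested, by −0.26 ± 0.06, −0.16 ± 0.04 and −0.11 ± 0.04 on the log2 scale. The Cct2 and Cct5 differences were not called under median-ratio scaling, quantile normalization or rescaling without the 20 most abundant genes, nor was the Cct8 difference under quantile normalization (−0.12, limma, adjusted p = 0.104). The Cct5 difference was also lost without AEG 3482 replicate 3 (limma, adjusted p = 0.0606). In Podofilox against Cardamonin, 6 of 7 subunits were lower in Podofilox, beside 28.7% of all genes tested called lower and 29.1% higher, with log2 differences from −0.23 (Tcp1) to −0.48 (Cct7). Cct4 differed by −0.10 ± 0.06 and did not pass the limma test. Between the pair of respiratory chain inhibitors, Antimycin A exceeded Dihydrorotenone in Cct2 by 0.14 ± 0.04 (SE; adjusted p = 0.0106, limma), 1 of 7 subunits beside 11.6% of all genes tested called higher and 3.91% lower. Under median-ratio scaling that difference was 0.07 (limma, adjusted p = 0.402).

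The make-up of the subunit pool was described by the share of each subunit in the summed TPM of the 7, which does not depend on the scaling between libraries. In DMSO, Cct4 took 15.7% ± 0.65 of the pool (SD, n = 6) and Cct2 15.4% ± 0.32. The Cct4 share was 11.6% ± 0.37 in Cardamonin, 13.1% ± 0.60 in AEG 3482 and 13.7% ± 0.08 in Podofilox (SD, n = 3 each), and each of these 9 libraries lay below the DMSO range of 14.9% to 16.7%. In the other direction, the Cct4 share was 17.4% ± 0.18 in Antimycin A, 17.3% ± 0.25 in Dihydrorotenone and 17.6% ± 0.54 in Clofilium tosylate, all above the DMSO range. The Cct4 share thus lay below the DMSO range in 3 compounds and above it in another 3. Shares add up to the whole pool, so a share also moves when other subunits change and is no separate measure of Cct4 itself. As deposited, the Cct4 level was not called in Cardamonin, AEG 3482, Podofilox or Dihydrorotenone.

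Cct2 took 17.3% ± 0.37 of the pool in Cardamonin, 18.3% ± 0.52 in AEG 3482 and 17.2% ± 0.02 in Podofilox, above its DMSO range of 15.0% to 15.8% in each library. The ratio of Cct4 to Cct2, neighbours in the ring, was 0.947 to 1.11 in DMSO, 0.653 to 0.697 in Cardamonin, 0.671 to 0.770 in AEG 3482 and 0.788 to 0.799 in Podofilox. Cct3 separated the 3 compounds. Its share was 15.0% ± 0.31 in Cardamonin, above the DMSO range of 11.1% to 14.7%, 14.0% ± 0.10 in Podofilox, inside that range, and 10.7% ± 0.25 in AEG 3482, below it. The margin in Cardamonin was narrow, with a lowest share of 14.700% against 14.693% in DMSO replicate 6. Cct8, conversely, took 22.3% ± 0.27 in AEG 3482, with 3 libraries above the DMSO range of 18.8% to 22.1%. Here too the margin was narrow, with a lowest share of 22.085% against 22.080% in DMSO replicate 4.

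**Figure D3:**
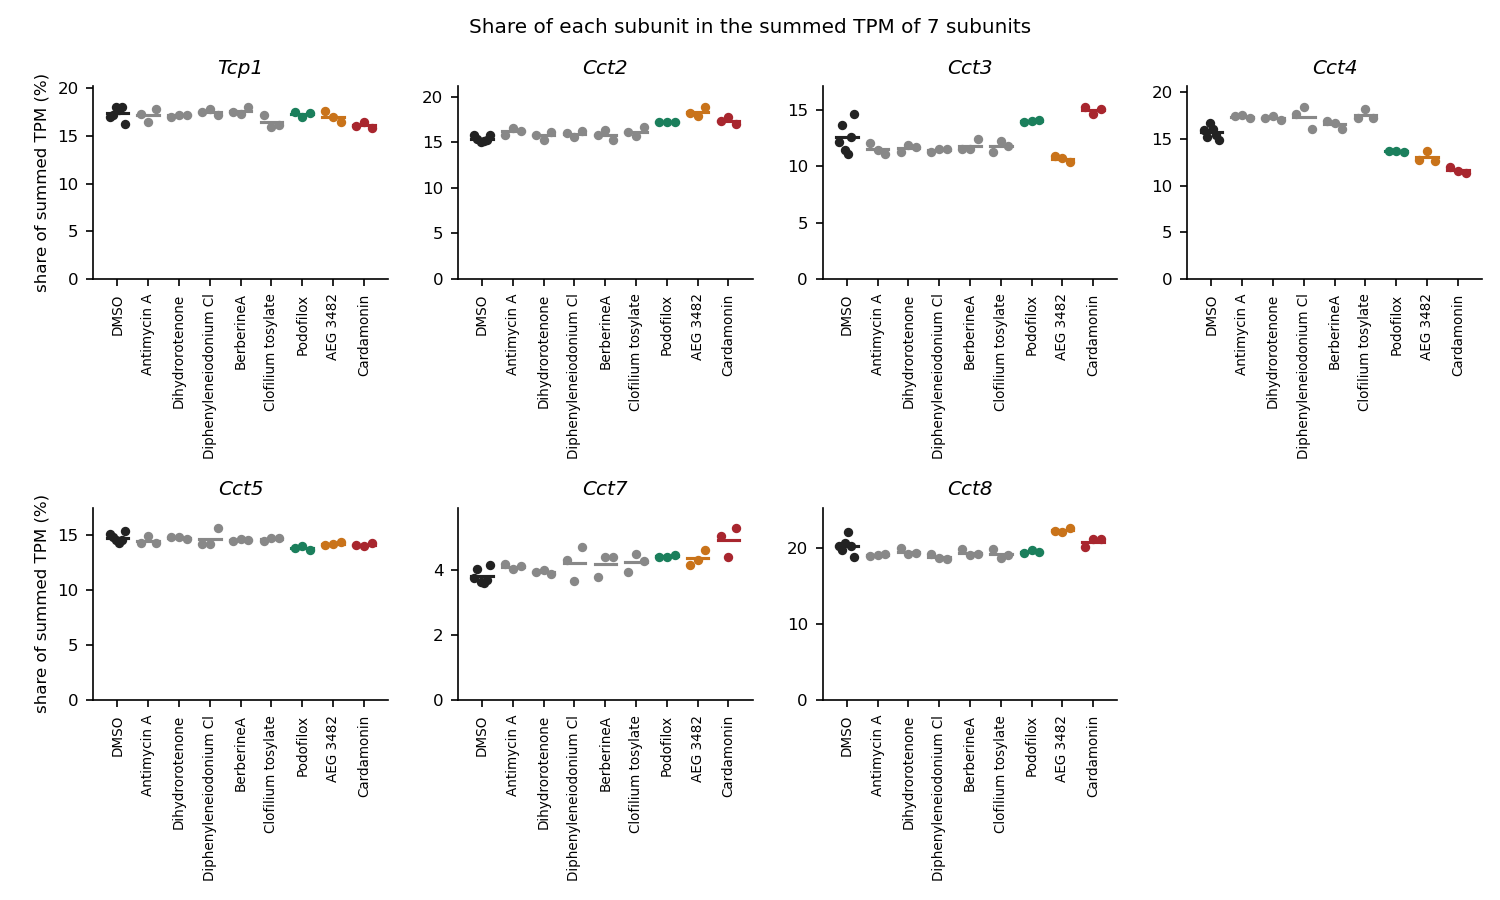
Share of each subunit in the summed TPM of the 7 subunits (vertical axis, percent, from 0) in every library (points) with group means (lines), by treatment (horizontal axis). The mean Cct4 share is 15.7% in DMSO and 11.6% in Cardamonin, while the Cct2 share is above DMSO in Cardamonin, AEG 3482 and Podofilox.

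The clients of the complex did not move as 1 group. Actin genes, and likewise tubulin genes, are close paralogs, so the division of reads among them is uncertain. Of 4 actin genes tested, all 4 fell in Cardamonin and in Podofilox, and 3 fell in AEG 3482. Counts for this and the following gene lists stand beside the shares of all genes tested. These were 37.3% called higher and 33.0% lower in Cardamonin, and 41.3% and 26.8% in AEG 3482. In Podofilox they were 26.2% called higher and 46.2% called in either direction. Actb and Actg1 encode the cytoplasmic actins. Actg1 fell from 755 ± 53.3 TPM in DMSO (n = 6, SD) to 409 ± 2.19 TPM in Cardamonin, 563 ± 17.4 TPM in AEG 3482 and 421 ± 23.6 TPM in Podofilox (SD, n = 3 each). Acta2, the smooth muscle actin, fell further, from 250.2 ± 42.8 TPM to 1.75 ± 0.203 TPM, 5.83 ± 0.446 TPM and 32.5 ± 10.5 TPM in the same compounds. Actb was 792 ± 75.2 TPM in DMSO and 726 ± 23.9 TPM in AEG 3482, which did not pass the test as deposited but was called lower under median-ratio scaling (log2 fold change −0.23) and without the 20 most abundant genes (−0.21).

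Of 11 tubulin genes tested, 7 rose and 3 fell in Cardamonin, 9 rose and none fell in AEG 3482, and 4 rose and 3 fell in Podofilox. Tubb4b rose from 90.9 ± 5.30 TPM in DMSO to 211 ± 7.74 TPM in Cardamonin (log2 fold change 1.21 ± 0.06 (SE; adjusted p = 2.02e-15, limma)) and 259 ± 10.5 TPM in AEG 3482, and fell to 78.6 ± 6.19 TPM in Podofilox. Tuba4a rose from 44.8 ± 3.96 TPM to 161 ± 17.0 TPM in Cardamonin and 109 ± 4.65 TPM in AEG 3482. The abundant alpha tubulin Tuba1a fell from 367 ± 30.6 TPM to 258 ± 4.78 TPM in Cardamonin, while its AEG 3482 level of 388 ± 16.8 TPM did not pass the test. In Podofilox the largest rise was that of Tubb2b, from 4.77 ± 0.439 TPM to 18.0 ± 2.13 TPM. The AEG 3482 count was 7 or 8 under other scalings, where Tuba1b, at 0.15 on the log2 scale as deposited, lost its call and stood at −0.01 under quantile normalization.

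Among 7 other known clients tested, 2 rose and 4 fell in Cardamonin, 6 rose and none fell in AEG 3482, and none rose and 3 fell in Podofilox. Hdac3, a histone deacetylase, was 135 ± 5.42 TPM in DMSO, 107 ± 1.68 TPM in Cardamonin, 168 ± 6.35 TPM in AEG 3482 and 101 ± 0.558 TPM in Podofilox, each called, with a rise only in AEG 3482 of these 3. Gnb1, a G protein beta subunit folded with the help of phosducin-like proteins, rose from 225 ± 5.12 TPM to 299 ± 10.6 TPM in Cardamonin and 290.4, 329.7 and 317 TPM in the AEG 3482 libraries.

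The proteins that work before and after the chaperonin were mixed as well, as were all genes tested. Of 6 prefoldin subunits, 2 rose and 2 fell in Cardamonin and in AEG 3482, and none rose and 1 fell in Podofilox. Pfdn2 rose from 91.0 ± 4.38 TPM to 151 ± 15.6 TPM in Cardamonin and 124 ± 2.99 TPM in AEG 3482. Pfdn5, the most abundant prefoldin subunit, fell from 482 ± 17.6 TPM to 339 ± 14.0 TPM, 412 ± 16.0 TPM and 402 ± 22.6 TPM in Cardamonin, AEG 3482 and Podofilox. In Antimycin A, 4 prefoldin subunits rose and 1 fell, beside 21.8% of all genes tested called higher and 15.5% lower. The rises of Pfdn2, Pfdn5 and Pfdn6 were not called under the same 3 scalings that removed the Cct7 call in Antimycin A. Of 6 tubulin folding cofactors, 4 rose and 1 fell in Cardamonin, and 2 rose and none fell in AEG 3482 and in Podofilox. Tbce, which handles the tubulin dimer together with Tbcd, rose from 65.2 ± 4.29 TPM to 101 ± 1.61 TPM in Cardamonin, whereas the small GTPase Arl2 fell from 63.5 ± 3.45 TPM to 43.7 ± 2.79 TPM. In AEG 3482, Arl2 and Tbca did not pass the test as deposited but were called lower under median-ratio scaling, quantile normalization and rescaling without the 20 most abundant genes (log2 fold changes from −0.14 to −0.25).

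Cytosolic heat shock genes, which encode the other large folding system of this compartment, were mostly higher in Cardamonin and AEG 3482. All 11 rose in Cardamonin (median log2 fold change 1.23), 10 rose and 1 fell in AEG 3482 (median 1.05), and 5 rose and none fell in Podofilox (median 0.17). The gene that fell in AEG 3482 was Hsf1, the heat shock transcription factor, from 33.8 ± 2.51 TPM to 28.1 ± 2.13 TPM. Hsp90aa1 rose from 210.2 ± 17.9 TPM to 714 ± 54.8 TPM, 448 ± 20.2 TPM and 335 ± 26.8 TPM in Cardamonin, AEG 3482 and Podofilox. Hspa8, the constitutive Hsp70, rose from 879 ± 39.9 TPM to 2056 ± 37.3 TPM, 1796 ± 50.9 TPM and 1171 ± 59.5 TPM. The inducible Hsp70 gene Hspa1b, which cannot be cleanly told apart from its near-identical copy Hspa1a, rose from 22.2 ± 4.25 TPM to 116 ± 7.07 TPM in Cardamonin and 196 ± 30.2 TPM in AEG 3482. In the 5 compounds with small subunit differences, Hspa1b fell, to between 10.1 TPM (Antimycin A) and 14.0 TPM (Diphenyleneiodonium Cl). Hspa1b does not stand for the list there, since Hspb1 went the other way except in Dihydrorotenone. The Hspb1 range was 105 to 132 TPM in DMSO, 168 to 187 TPM in Antimycin A and 138 to 151 TPM in Diphenyleneiodonium Cl. It was 148 to 168 TPM in BerberineA, 136 to 167 TPM in Clofilium tosylate and 120 to 131 TPM in Dihydrorotenone, inside the DMSO range.

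**Figure D4:**
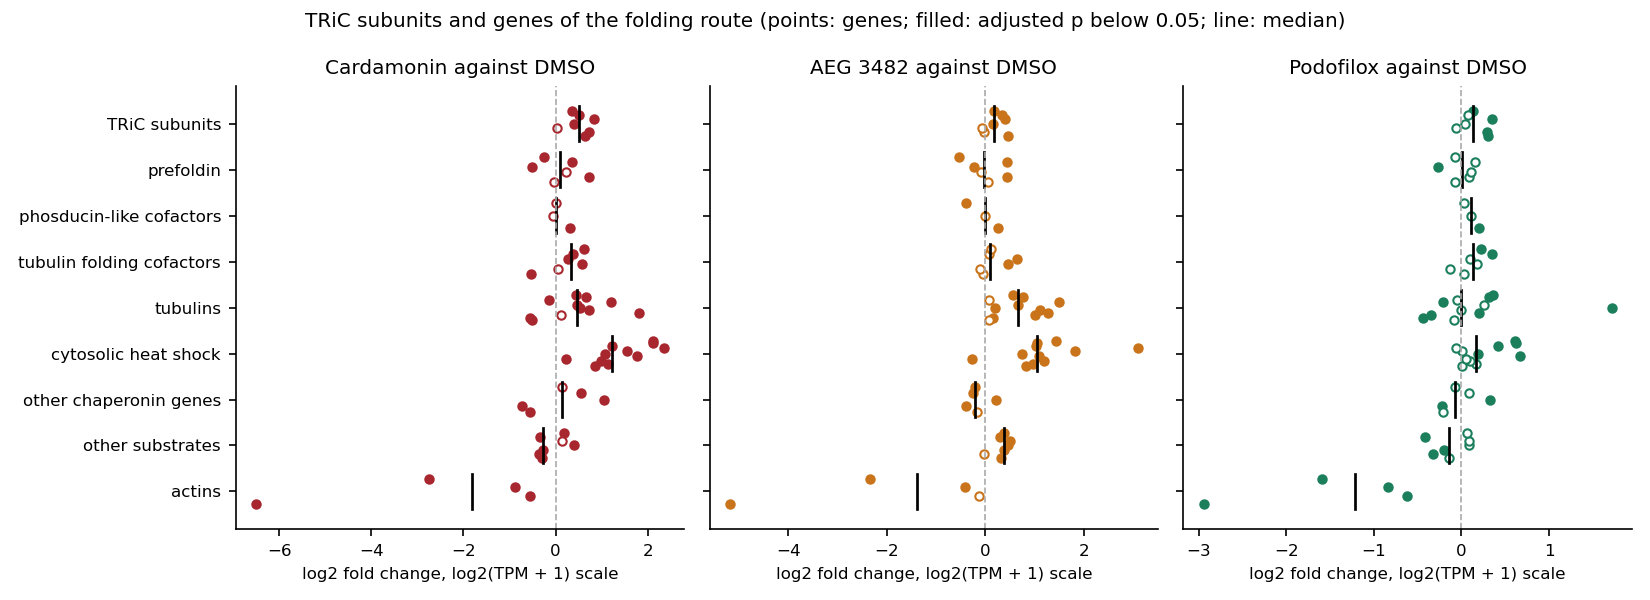
Log2 fold changes (horizontal axis, log2(TPM + 1) scale, a range of its own in each panel) of the subunits and of 8 gene lists (vertical axis) in Cardamonin, AEG 3482 and Podofilox against DMSO, with 1 point per gene, filled for adjusted p below 0.05, and a line at the median. The medians for heat shock genes are 1.23, 1.05 and 0.17, those of the subunits 0.51, 0.18 and 0.13, and the actins lie to the left in all 3 panels.

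The genes with the pattern most like the average subunit were found from the 9 group means of log2(TPM + 1), each centred on its own mean, by the root mean square difference. Among tested protein-coding genes these were Exosc4, a subunit of the RNA exosome (0.028), Immt, a mitochondrial inner membrane organiser (0.028), Trappc11, a vesicle tethering factor (0.029), Ywhaq, a 14-3-3 protein (0.030), and Xkr6 (0.032). For scale, the root mean square of the average subunit profile itself was 0.157. By the same measure, Cct5 was the subunit nearest to the average of the 7, at 0.037, followed by Tcp1 at 0.046. Cct4 was the farthest, at 0.210, and Cct3 came next, at 0.138. Each subunit is part of that average, whereas the genes outside the complex were picked as the closest to it. The distances of subunits and of those genes therefore cannot be set against each other.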

How the data were processed

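Total RNA of 30 fibroblast cultures was depleted of ribosomal RNA and sequenced, per the labels' protocols. The deposited TPM values were made by the authors with kallisto 0.43.1 and tximport, per the series text and the submitters' processing notes, which also name FastQC and mm10. Listed genes sum to 92.7% to 93.7% of 1000000 TPM in a library. Gene symbols come from GENCODE M21, matched for 29505 of 29861 genes.

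The 13644 genes that reached 1 TPM in 3 or more libraries were fitted as log2(TPM + 1) with limma 3.58.1 in R 4.3.3 with an intensity trend, over all 30 libraries with 1 mean per group and no covariate. Benjamini-Hochberg adjustment ran over all genes of a comparison at 0.05. The log scale understates changes of low genes. The script was tested on simulated data. Alternatives varied pseudocount, filter, scaling, variance model, libraries fitted, replicate block and pseudogene reads. The series text gives 5 DMSO replicates and the labels 6, all used. The members and gene lists were chosen with earlier results of these data known. Named genes are the subunits, the lists' members and the 5 genes most like the subunits. Some marker genes are not reported here.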

Additional observations from a re-analysis of the deposited data

Results flagged for a closer look

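Each of 68 values (TPM or shares of the subunits and TPM of the listed genes) was examined for a DMSO library far from the other 5, by the gap to its nearest neighbour over the whole range (critical ratio 0.625). In 7 of them 1 library stood apart, and chance gives about 1 in 20. Among the subunits this was Cct5, at 148.9 TPM in DMSO replicate 5 against 157.7 to 160.3 TPM in the others. Vbp1, a prefoldin subunit, was at 59.2 TPM in DMSO replicate 4 against at most 55.2 TPM, and Pfdn6 at 62.6 TPM in replicate 6 against at most 52.2 TPM. Cdc20, a client of TRiC, was at 2.80 TPM in replicate 3 against at most 2.37 TPM. Hspd1 was at 128 TPM in replicate 4 against at most 117 TPM. Mkks was at 25.9 TPM in replicate 5 and Bbs12 at 5.34 TPM in replicate 6, both below the other libraries (at least 28.7 and 6.81 TPM).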

How the results depend on the processing

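Of 84 subunit differences (7 subunits in 12 comparisons), 40 were called and 26 of these passed the threshold in every alternative. Of the 44 others, 5 passed in some alternative, and 32 values changed sign without passing. The 6 rises in Cardamonin held in each alternative run. For Diphenyleneiodonium Cl the count of lower subunits, 2 as reported, was 0 with every gene above 0 TPM tested or only the 2 groups fitted, and 1 after rescaling to protein-coding genes, with no intensity trend or with the replicate block. For AEG 3482 the count of higher subunits went from 5 to 3 under median-ratio scaling, quantile normalization and rescaling without the 20 most abundant genes, and that of lower subunits from 0 to 1, 2 and 1. Under the same 3 scalings, Podofilox against AEG 3482 had 1, 0 and 1 lower subunits in place of 3, and Antimycin A against Dihydrorotenone had 0 higher in place of 1, as it did with only the 2 groups fitted. Cct5 in Podofilox against AEG 3482 changed sign under quantile normalization, to 0.0011. The cause was not tested. Leaving out 1 library at a time gave 0 to 2 lower and 0 to 1 higher subunits in Diphenyleneiodonium Cl, 1 to 3 higher in Clofilium tosylate, 3 to 5 in Podofilox, 2 to 3 in Antimycin A and 5 to 6 in Cardamonin against AEG 3482. Replicate numbers do not pair the samples in the labels, and same-numbered libraries deviated together by correlations of −0.055 to 0.12, over 0.1 for all 3 numbers in 0 of 8 compounds. With the replicate block, and so with only DMSO replicates 1 to 3 as controls, the count in Clofilium tosylate was 0 in place of 3. Of 2688 counts of the other gene lists under alternatives, 2504 were within 1.5 times the reported count, and the largest shift was 3 genes. Depth is unknown, so no limit from counting is given.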

Other observations

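Genes related to the TRiC subunits by descent or by fold, and Hspe1, were not described above. Hspd1 and Hspe1 encode the mitochondrial chaperonin Hsp60 and its lid. Hspd1 rose in Cardamonin from 116 ± 6.32 TPM (n = 6, SD) to 242 ± 11.4 TPM (n = 3, SD), with a log2 fold change of 1.05 ± 0.05 (SE; adjusted p = 1.29e-16, limma), and to 146 ± 3.77 TPM in Podofilox, 0.33 ± 0.05 (SE; adjusted p = 1.90e-06, limma). In AEG 3482 it was 134 ± 6.34 TPM, a call that was lost under median-ratio scaling and quantile normalization. Hspe1 rose from 194 ± 7.95 TPM to 285 ± 19.5 TPM in Cardamonin and fell to 164 ± 3.01 TPM in AEG 3482. Mkks, Bbs10 and Bbs12 encode chaperonin-like proteins that act with TRiC in assembling a ciliary complex. Bbs12 fell from 6.66 ± 0.652 TPM to 3.61 ± 0.174 TPM in Cardamonin and 4.82 ± 0.522 TPM in AEG 3482, and Bbs10 fell from 3.35 ± 0.488 TPM to 1.96 ± 0.305 TPM in Cardamonin. Of the 5 genes of this list tested, 2 rose and 2 fell in Cardamonin, 1 rose and 3 fell in AEG 3482, and 1 rose and 1 fell in Podofilox. These counts stand beside the shares of all genes tested given with the actin genes.

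Of 3 phosducin-like cofactors, Pdcl, which helps TRiC assemble G protein beta and gamma subunits, rose in Cardamonin from 27.1 ± 2.65 TPM to 33.8 ± 0.690 TPM, with a log2 fold change of 0.31 ± 0.07 (SE; adjusted p = 0.000254, limma). It was also called higher in AEG 3482, by 0.25 ± 0.07 (SE; adjusted p = 0.00216, limma), and in Podofilox, by 0.20 ± 0.07 (SE; adjusted p = 0.02, limma), and neither call was left under median-ratio scaling or quantile normalization. Txndc9 fell in AEG 3482 from 91.9 ± 4.59 TPM to 69.6 ± 5.29 TPM, −0.40 ± 0.06 (SE; adjusted p = 2.76e-06, limma). Pdcl3 was 98.0 ± 4.25 TPM in DMSO, 94.0 ± 1.85 TPM in Cardamonin and 97.2 ± 2.38 TPM in AEG 3482, and passed the test in neither as deposited but was called lower in both under quantile normalization (log2 fold changes −0.17 and −0.18).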
